A study of Melianthus elongatus with 11 samples.

Results

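Starch metabolism in Melianthus elongatus, which the design text calls Melianthus minor, a shrub with black nectar, was described here from 67 assembled transcripts (contigs) that the deposited table matches to enzymes of starch synthesis and breakdown. The members were the contigs whose closest Arabidopsis thaliana gene was one of 38 loci of the pathway and whose normalised read count was at least 10 in at least 2 of the 11 libraries. Of 193 contigs listed for these loci, 67 met that minimum, and they represented 33 of the 38 loci. The whole table kept 26053 of 68651 contigs under the same minimum. Synthesis was represented by 28 contigs of 15 loci and breakdown by 39 contigs of 18 loci. Gene names below are those of the closest Arabidopsis gene, and the roles given are those known from Arabidopsis. Within a locus, the contig with the highest mean over all libraries is called the leading contig. Levels are compared within a contig, not between contigs. The enzymes were not assayed in Melianthus, and contigs of 1 locus may be alleles, paralogs, isoforms or fragments of 1 transcript.

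Starch is built in plastids. Phosphoglucose isomerase and phosphoglucomutase supply glucose 1-phosphate, ADP-glucose pyrophosphorylase makes the activated sugar ADP-glucose, starch synthases lengthen the glucan chains, and branching and isoamylase enzymes shape them into a granule. For breakdown, the dikinases GWD and PWD phosphorylate the granule surface, phosphatases remove the phosphate again, debranching enzymes and beta-amylases release linear glucans and maltose, and transporters and glucanotransferases pass the products on. In leaves, starch made by day is broken down at night. In the nectaries of several plants, starch stored before secretion is broken down to feed the sugar of the nectar.

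The libraries were made from leaves and dissected nectaries of plants kept outdoors in a botanical garden, and the labels name no treatment, genotype or plant age. Each library carries a code, and the groups compared were the first parts of these codes: code 0 (libraries 0-A and 0-B), code 1 (1-A, 1-B and 1-C), code 2 (2-A, 2-B and 2-C) and code L (L-A, L-B and L-C). No source used here says what the codes mean. The filed tissues and stages cross them: 0-A, 0-B and 1-A are filed as mature leaf, 1-B and 1-C as presecretory nectary, the libraries of code 2 as secretory nectary and those of code L as postsecretory nectary. The title of 2-A calls it presecretory, while its stage entry says secretory. No tissue or stage is therefore assigned to a code below. Whether the libraries of a code come from different plants is not stated. The p-values therefore describe the spread among these libraries alone, and that spread could be technical. In whole-tissue RNA, fewer cells of a type and less RNA per cell cannot be told apart.

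Library totals ran from 631454.5 to 1168304.8, with the 3 lowest in code L. Marker genes of leaf photosynthesis, all 8 of which had a kept contig, summed to between 28568 and 50041 in code L and to between 1808 and 3050.1 in the other codes. Nectary markers, of which 5 of 6 were listed and BOP1 was not, had sums between 24.4 and 106 for code L, of 1593 and 1838 for code 0, between 4773 and 6193 for code 1 and between 6574 and 9915 for code 2. SWEET9, the sugar exporter of nectaries, was at 0.171 to 37.8 in code L, 1.07 and 2.86 in code 0, and 2037 to 5292 in codes 1 and 2. CRC, which specifies the nectary, was at 1041 and 1351 in code 0, from 62.0 to 498 in codes 1 and 2, listed at 0 in L-B and at 4.91 in L-A. CWINV4, a cell wall invertase of nectaries, went another way, at 58.2 and 38.3 in code 0, 0.28 to 14.2 in codes 1 and 2 and 15.5 to 23.5 in code L. The marker levels thus go against the filed labels: the libraries filed as postsecretory nectary held the highest photosynthesis sums and the lowest nectary sums. Of the other lists, pollen and tapetum markers (3 of 6 loci listed, without AGP11, PPME1 and AMS) summed to 42.8 to 220 in codes 0, 1 and 2 and 12.2 to 18.9 in code L. Most of that sum was AGP6, at 214, 196 and 77.5 in code 1 and 37.9 to 74.3 in codes 0 and 2. Phloem and xylem markers (5 of 5) summed to between 66.3 and 195, most of it the xylem gene IRX3, at 161 and 118 in code 0 and 49.7 to 98.5 elsewhere. The phloem markers SUC2 and APL MYB differed from each other, and neither had a contig that met the minimum. SUC2 was highest in codes 1 and 2, at 5.16 to 12.0, against no more than 1.21 in codes 0 and L. APL MYB was highest in code 0, at 10.6 or more, against 3.04 to 7.09 in codes 1 and 2 and 4.67 to 9.61 in code L. Epidermis and stomata markers (3 of 4, since SLAC1 was not listed) summed to between 178 and 226 in code L and 13.2 and 117 elsewhere. In code L the epidermal gene CER6 made up nearly all of that sum, at 172 to 223, while the stomatal gene FAMA was at 1.24 to 1.90 in code L and 34.6 and 75.9 in code 0. These levels move with the codes, and their part in the differences reported below was not tested.

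A contig of the glucan dikinase PWD and one of the beta-amylase BAM1 were higher in codes 1 and 2 than in codes 0 and L. Contigs of ADP-glucose pyrophosphorylase, the phosphorylase PHS1, the phosphatase SEX4 and the glucanotransferase DPE1 were lower in codes 1 and 2 than in code 0. Differences were taken on log2(value + 1) with limma, and a call needed an adjusted p below 0.05 together with a log2 difference of 1 or more in either direction. Between code 1 and code 0, 24 of the 67 starch contigs were called, 9 higher and 15 lower in code 1, where 25.8% of all contigs were called, 13.6% higher and 12.2% lower. Between code 2 and code 0, 26 were called, 7 higher and 19 lower in code 2, against 24.0% of all contigs, 11.5% higher and 12.5% lower. The median log2 difference of the starch contigs was -0.73 for code 1 minus code 0 and -0.81 for code 2 minus code 0, and that of all contigs 0.10 and 0.05. No starch contig was called by limma between codes 2 and 1, where 1.17% of all contigs were called, 0.184% higher and 0.983% lower. There, 9 of the 67 had an unadjusted p under 0.05, and the lowest adjusted p was 0.0568. With libraries given weights, 6 were called between these codes, and the share of all contigs called rose to 7.35%. All comparisons share libraries, so they are not independent of each other.

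Both counts against code 0 rest on 2 libraries. For code 1, 13 contigs were called without 0-A and 12 without 0-B, where the shares of all contigs were 15.2% and 15.5%. For code 2, 17 were called without 0-A and 12 without 0-B, against 13.6% and 12.7%. With libraries grouped by filed tissue and stage, 0 of all 26053 contigs were called in either comparison by limma, so the starch contigs had no call there either. At an unadjusted p under 0.05 there were 14 and 24 starch contigs, and 13.7% and 20.3% of all contigs.

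Differences from code L were more frequent in the whole table. Between codes 0 and L, 36 starch contigs were called, 22 higher and 14 lower in code 0, against 62.8% of all contigs, 49.4% higher and 13.3% lower. For code 1, 37 were called against L, 17 higher and 20 lower, against a background of 68.8%, 54.4% higher and 14.4% lower. For code 2, 41 were called, 19 higher and 22 lower, against 67.5%, 52.4% higher and 15.1% lower. The balance of higher and lower calls depends on the scaling of the libraries. As deposited, the median of all contigs was 1.08, 1.21 and 1.18 above code L in codes 0, 1 and 2. With equal library totals it was 0.69, 0.68 and 0.66, and with median ratio scaling 0.14, 0.24 and 0.29. With equal totals the higher and lower calls were 14 and 20 for code 0, 15 and 25 for code 1, and 11 and 30 for code 2. Of all contigs, 35.7% were then higher and 16.2% lower in code 0, 37.8% and 17.9% in code 1, and 36.5% and 18.7% in code 2. With median ratio scaling the starch calls were 9 and 26, 10 and 35, and 10 and 33. The shares of all contigs were then 18.2% and 20.9%, 24.5% and 21.9%, and 25.9% and 22.1%. Called the same way under all 3 scalings were 23 contigs for code 0 (9 higher, 14 lower), 30 for code 1 (10 and 20) and 32 for code 2 (10 and 22). Below, a call against code L is given as held where it is one of these. Some contigs met the minimum of 10 through libraries of 1 code only, so that they had to differ to be kept, and their differences from that code are a description. They were PGI1 Mm24452, APL1 Mm178893, SEX4 Mm292761, BAM1 Mm346182, BAM3 Mm70493, both BAM6 contigs and AMY3 Mm122370 and Mm273996 for code L. They were APL4 Mm25035, GBSS1 Mm33953, SBE2.2 Mm22002, DPE2 Mm354241 and PHS2 Mm16883 for code 0, BAM1 Mm7128 and Mm7657 for code 2, and AMY3 Mm2895 for code 1. Others reached it in libraries of 2 codes only, and the minimum likewise favours their differences from the remaining codes. These were APS1 Mm56940, APL1 Mm12203, SS4 Mm23136, ISA1 Mm122334, GWD1 Mm77280, LDA Mm20282, AMY3 Mm15272 and PHS1 Mm6708 for codes 0 and L. Both kept SS2 contigs, AMY1 Mm252734 and AMY2 Mm12522 did so for codes 1 and 2, and PGM1 Mm21834 for codes 1 and L.

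**Figure D1:**
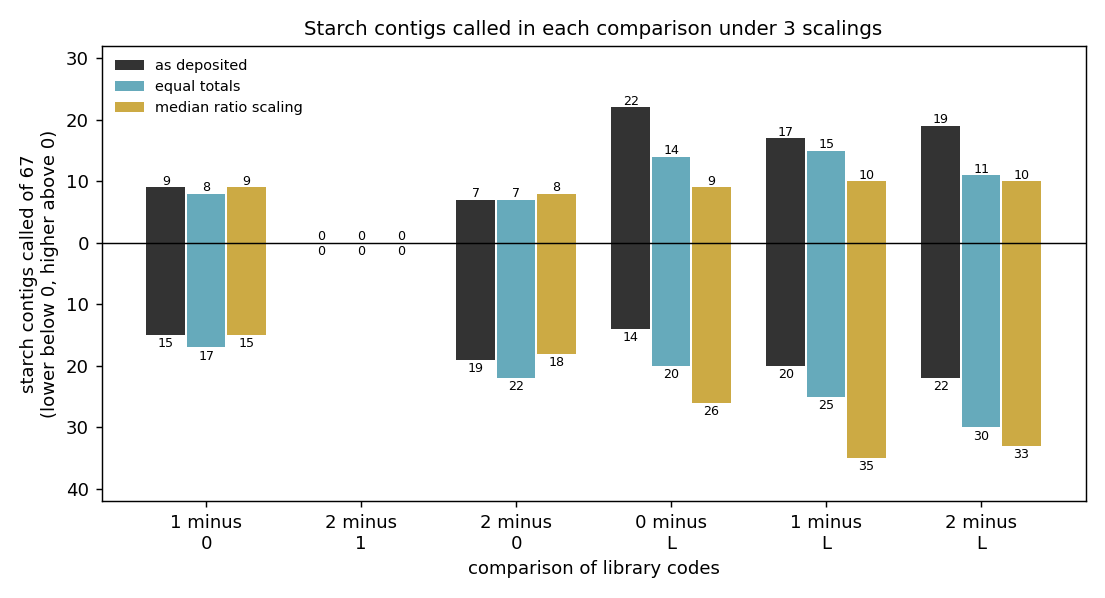
Bars show how many of the 67 starch contigs were called higher (above 0) or lower (below 0) in the first code of each comparison (x axis), with the values as deposited, with equal library totals and with median ratio scaling. The split for code 1 minus code 0 ran from 9 and 15 to 8 and 17, while in the comparisons with code L the higher calls fell in number and the lower calls grew under both other scalings.

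**Figure D2:**
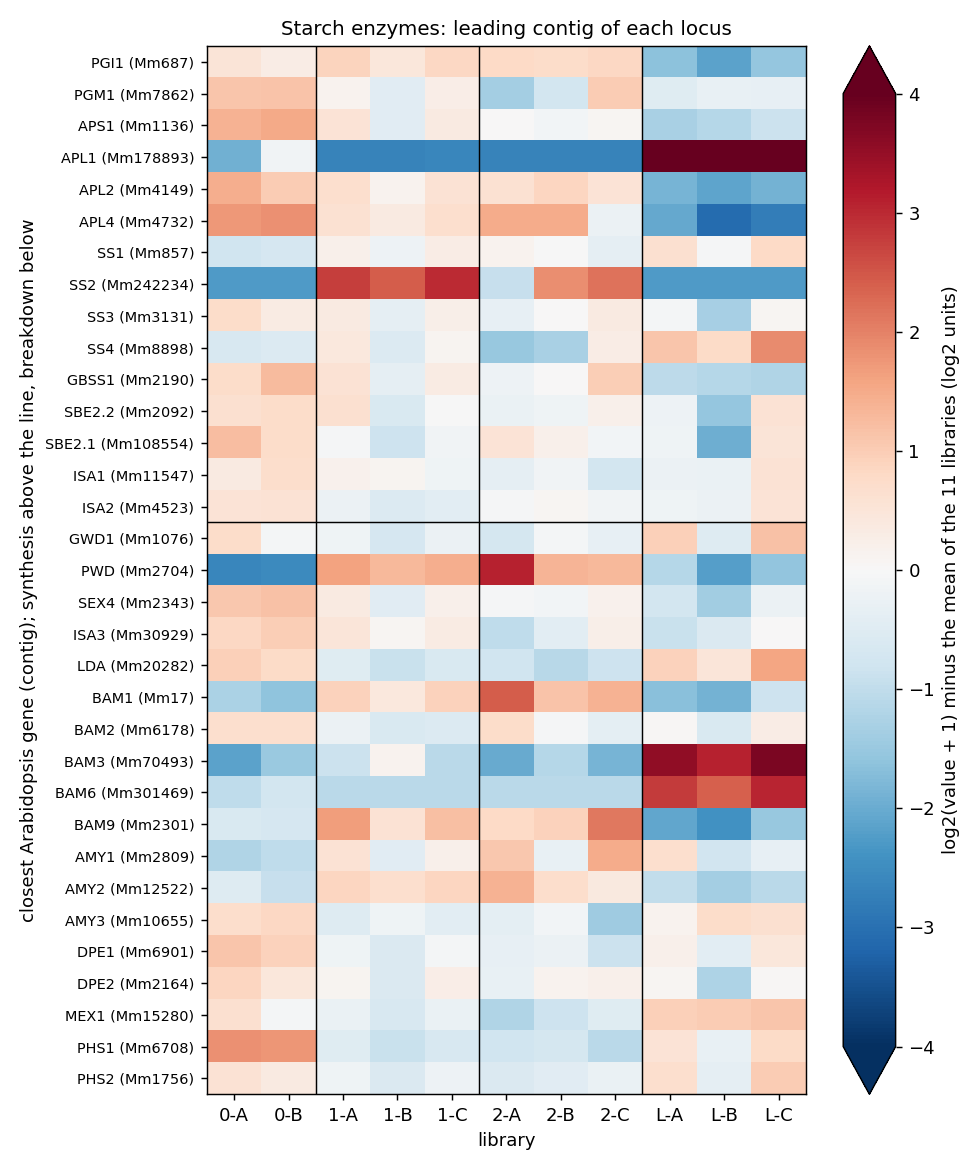
Each row is the contig with the highest mean of its locus and each column a library, grouped by code. Colour gives log2(value + 1) minus the contig's mean over the 11 libraries, in log2 units, with red above and blue below that mean. PWD and BAM1 stand high in codes 1 and 2, PHS1 in code 0, and APL1, BAM3 and BAM6 in code L.

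The first step, the supply of hexose phosphates, was represented by PGI1 (AT4G24620), the plastid phosphoglucose isomerase, and PGM1 (AT5G51820), the plastid phosphoglucomutase. The leading PGI1 contig, Mm687, was at 71.4 and 61.2 in code 0, 92.6, 67.5 and 88.3 in code 1, 86.9, 82.5 and 87.8 in code 2, and 15.2, 10.4 and 16.4 in code L. All libraries of code L lay below those of the other codes for this contig. The log2 difference of code 0 minus code L was 2.18 (SE 0.25, adjusted p = 4.60e-05), and codes 1 and 2 minus code L were 2.49 and 2.55. These calls held under every scaling. The other 2 kept PGI1 contigs went the other way, with Mm14565 at 46.0 ± 13.7 in code L (SD, n = 3) and 8.93 ± 1.07 in code 1, and Mm24452 at 15.3 ± 6.60 and 2.79 ± 0.728. With all contigs of the locus summed, PGI1 was nearly level, at 88.3 ± 10.9 in code 0 (SD, n = 2), 97.3 ± 13.4 in code 1, 99.6 ± 2.47 in code 2 and 90.7 ± 18.0 in code L. Mm687 made up 75.1% to 86.1% of that sum in codes 0, 1 and 2 and 15.4% in code L.

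For PGM1, library 2-C decided whether the leading contig was called against code 0. Its leading contig Mm7862 was at 57.8 and 58.9 in code 0, 29.0, 18.9 and 31.7 in code 1, 9.68, 15.3 and 54.3 in code 2, and 18.5, 21.3 and 20.7 in code L. The libraries of code 0 were above all others, with 2-C next to them and far from 2-A and 2-B. Code 1 minus code 0 was -1.14 (adjusted p = 0.144), not called with all libraries. Without 2-C the contig was called lower in codes 1 (adjusted p = 0.00919) and 2 (0.000474). The second contig, Mm21834, was higher in code 1 than in code 0, by 1.85 (SE 0.54, adjusted p = 0.0255), at 23.4 ± 10.4 against 5.50 ± 2.50, and it was at 6.21 ± 3.34 in code 2.

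ADP-glucose pyrophosphorylase, the enzyme of the committed step, has small catalytic subunits (APS1) and large subunits, of which APL1 (AT5G19220), APL2 (AT1G27680) and APL4 (AT2G21590) had kept contigs. Of its 7 kept contigs, 5 were called lower in code 1 than in code 0, and 5 in code 2, with no contig called higher in either. Of all contigs, 12.2% and 12.5% were called lower in these comparisons. APL4 Mm25035, 1 of the contigs called lower, met the minimum through code 0 alone, and APL1 Mm178893 was called at values of 4.75 or less. APS1 Mm56940 and APL1 Mm12203, also called lower, reached the minimum in libraries of codes 0 and L only, which favours such calls. Of the 5 contigs, APS1 Mm1136 alone reached it in codes 1 and 2. In code L, APS1 (AT5G48300) Mm56940 and APL1 Mm178893 were higher than in the other codes, while APS1 Mm1136, APL2 Mm4149 and APL4 Mm4732 were lowest there in the values as deposited. Between codes 0 and L, APL1 Mm178893, which met the minimum through code L alone, had the largest fitted difference of the 67 starch contigs.

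The leading small-subunit contig, APS1 Mm1136, was at 121 and 130.3 in code 0, 66.4, 33.0 and 58.1 in code 1, 46.0, 42.1 and 48.1 in code 2, and 17.7, 20.05 and 24.4 in code L. Code 0 was above every other library and code L below every other one. Code 1 minus code 0 was -1.30 (SE 0.29, adjusted p = 0.00674) and code 2 minus code 0 -1.45 (SE 0.29, adjusted p = 0.00418). The first call was lost without 0-B (0.0572), the value in brackets being the adjusted p then. Against code L, code 0 was 2.56 (SE 0.29, adjusted p = 4.85e-05), a call that held, while the calls for codes 1 and 2 did not hold under the other scalings. A second small-subunit contig, Mm56940, was highest in code L, at 13.0 and 14.7 in code 0, 3.64, 1.15 and 2.14 in code 1, 2.09, 3.41 and 1.54 in code 2, and 83.7, 75.2 and 123 in code L. It was lower in codes 1 and 2 than in code 0, with log2 differences of -2.23 and -2.18, and code 1 minus code L was -4.88 (SE 0.34, adjusted p = 1.32e-06), which held. Summed over its contigs, APS1 was at 144 ± 5.63 in code 0, 56.5 ± 18.5 in code 1, 49.4 ± 1.49 in code 2 and 119 ± 28.2 in code L. Mm1136 was 87.4% to 92.8% of the sum in codes 0, 1 and 2 and 17.5% in code L.

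Of the large subunits, APL1 Mm178893 was at 0.693 and 4.75 in code 0, and 362, 336 and 555 in code L. In code 1 it was listed at 0 in 1-A and 1-B and at 0.03 in 1-C, and in code 2 it was listed at 0 in every library. Mm178893 met the minimum through code L alone, so a higher level there was required for it to be kept, and its differences from code L are a description. Code 0 minus code L was -7.03 (SE 0.46, adjusted p = 2.42e-06), a call kept under all scalings and with any 1 library left out. Its call against code 0 in code 1 rested on values of no more than 4.75 and was lost without any 1 of 0-B (0.254), 1-A (0.0529) or 1-C (0.0518). The other kept APL1 contig, Mm12203, was at 1.92 ± 0.358 in code 1 and 2.91 ± 0.240 in code 2, below 9.18 ± 1.16 in code 0 and 12.0 ± 2.94 in code L. APL2 and the leading APL4 contig had the reverse order in code L. APL2 Mm4149 was at 42.0 and 30.4 in code 0, 23.7, 16.3 and 22.3 in code 1, 22.9, 27.6 and 21.8 in code 2, and 3.34, 2.64 and 3.20 in code L, so that code L lay below all other libraries, and code 0 minus code L was 3.18 (SE 0.26, adjusted p = 7.83e-06).

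APL4 Mm4732 was at 27.0 and 28.8 in code 0, 11.8, 9.69 and 12.3 in code 1, 22.7, 22.4 and 6.12 in code 2, and 1.05, 0 and 0.236 in code L. Code 0 minus code L was 4.40 (SE 0.51, adjusted p = 5.27e-05), code 1 minus code L 3.16 and code 2 minus code L 3.53, and these calls held. Without 2-C, the library of code 2 that stood apart, code 1 minus code 0 was also called (adjusted p = 0.0147). The second APL4 contig, Mm25035, marked code 0 instead, at 35.8 and 39.4 in code 0, 0.765, 0.869 and 0.898 in code 1, 5.24, 0 and 0.569 in code 2, and 0.353, 2.65 and 1.05 in code L. Code 1 minus code 0 was -4.39 (SE 0.68, adjusted p = 0.00086) and code 2 minus code 0 -4.17 (SE 0.68, adjusted p = 0.00127). All other libraries were at 5.24 or less. Mm25035 met the minimum through code 0 alone, so a higher level there was required for it to be kept. No contig of APL3 was listed.

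**Figure D3:**
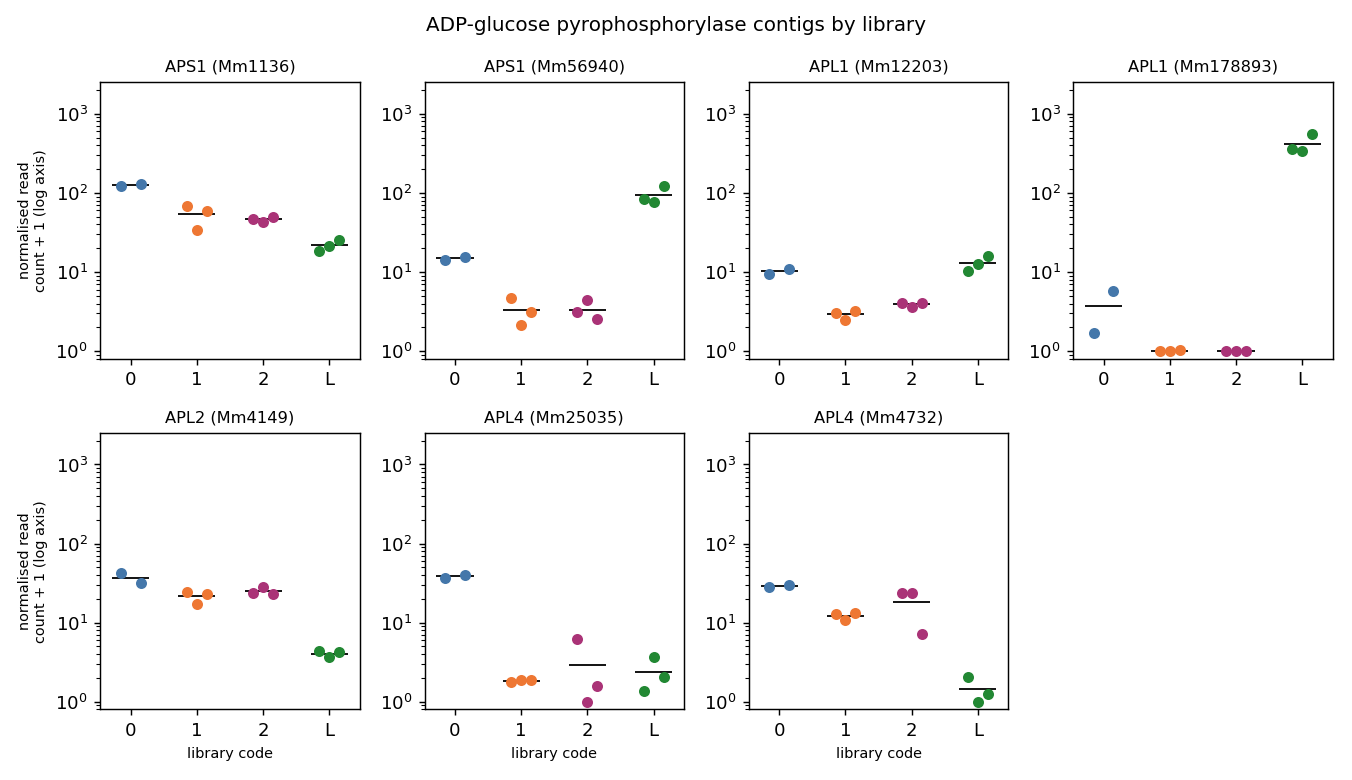
Points are libraries and lines the code means of the 7 kept ADP-glucose pyrophosphorylase contigs, as normalised read count plus 1 on a log axis, by library code. APS1 Mm56940 and APL1 Mm178893 were highest in code L, and APL2 Mm4149 and APL4 Mm4732 lowest there, while APL4 Mm25035 was high in code 0 alone of the 4 codes.

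Among the enzymes that lengthen chains, 2 of 9 contigs were called higher in code 1 than in code 0, against 13.6% of all contigs. Both were of starch synthase 2 (SS2), which makes chains of intermediate length. SS2 (AT3G01180) Mm242234 was listed at 0 in both libraries of code 0 and in all 3 of code L. It was at 31.7, 24.7 and 36.5 in code 1 and 1.50, 16.1 and 20.4 in code 2, with 2-A far below 2-B and 2-C. The adjusted p was 0.000596 for code 1 against 0 and 0.0077 for code 2 against 0, and the second was lost without either 0-A (0.0545) or 0-B (0.0571). Since an exact 0 in such a file can also be an estimate that failed, no size is given for this contig. The other SS2 contig, Mm11155, was at 4.29 ± 0.272 in code 0, 17.2 ± 2.64 in code 1, 13.8 ± 11.5 in code 2 and 4.16 ± 1.86 in code L. Its code 1 minus code 0 difference was 1.78 (SE 0.55, adjusted p = 0.0343) as deposited, and it was not called under at least 1 of the other scalings.

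The leading contigs of SS1 (AT5G24300) and SS4 (AT4G18240) had calls against code L, that of SS1 for code 0 alone. SS1, which makes short chains, had the leading contig Mm857 at 31.9 and 34.9 in code 0, 64.9, 48.8 and 68.6 in code 1, 62.3, 55.9 and 43.6 in code 2, and 88.8, 53.8 and 97.6 in code L, and code 0 minus code L was -1.19 (SE 0.29, adjusted p = 0.00426). SS4, which starts granules, had Mm8898 at 6.61 and 7.05 in code 0, 14.7, 7.13 and 11.8 in code 1, 3.13, 3.81 and 13.7 in code 2, and 24.4, 18.9 and 42.7 in code L, with code 2 minus code L at -2.08 (SE 0.48, adjusted p = 0.00242). The call of code 1 against L was lost without any 1 of 1-B (0.118), 1-C (0.0603), L-A (0.0599) or L-C (0.128). Both contigs were highest in code L on average, although for SS1 the libraries of codes 1 and 2 overlapped those of code L. The other kept SS4 contig, Mm23136, was instead at 10.7 ± 0.587 in code 0 and 7.78 ± 3.36 in code L. With its contigs summed, the SS4 locus was not called against code L for any code. SS3 (AT1G11720), which makes long chains, was at 12.5 ± 2.71, 9.01 ± 2.44, 8.53 ± 2.30 and 6.34 ± 3.23 in codes 0, 1, 2 and L (Mm3131) and was called in no comparison.

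GBSS1 (AT1G32900), the granule-bound synthase that makes amylose, was lowest in code L as deposited. Its leading contig Mm2190 was at 52.4 and 75.4 in code 0, 46.6, 23.8 and 39.3 in code 1, 26.6, 31.4 and 61.2 in code 2, and 14.4, 13.4 and 12.8 in code L. Code 0 minus code L was 2.14 (SE 0.38, adjusted p = 0.000647) and held, whereas the calls for codes 1 and 2 were not kept with the other scalings. GBSS1 Mm52171 was lower in code 2 than in code 0, at 29.1 ± 13.1 against 58.5 ± 14.5, with a difference of -1.05 (SE 0.35, adjusted p = 0.0464) that was not called with median ratio scaling. GBSS1 Mm33953, the kept contig closest to the minimum, was at 13.5 and 10.3 in code 0, 4.89, 1.40 and 2.53 in code 1 and 3.18, 0 and 9.01 in code 2, and was listed at 0 in all libraries of code L. Its second-highest value was 10.3, and the nearest contig left out, DPE2 (AT2G40840) Mm262231, had 9.35.

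Branching and trimming had 4 and 3 kept contigs, too few for their counts of calls to be set against the share of all contigs. Of all contigs, 25.8% were called for code 1 minus code 0 and 62.8% for code 0 minus code L. Against code L, code 0 had 2 of the 4 branching contigs called. Of 4 contigs of the branching enzymes SBE2.1 (AT2G36390) and SBE2.2 (AT5G03650), 1 was called between codes 0 and 1: SBE2.2 Mm2432, at 37.8 ± 6.08 in code 0 and 15.04 ± 1.70 in code 1, with a difference of -1.27 (SE 0.29, adjusted p = 0.00704). The leading SBE2.2 contig, Mm2092, was at 47.6 ± 2.74, 31.3 ± 13.8, 28.0 ± 5.39 and 26.0 ± 17.1 in codes 0, 1, 2 and L, and SBE2.1 Mm108554 at 31.4 ± 7.85, 12.2 ± 3.55, 18.1 ± 4.17 and 12.9 ± 9.51. In code L both ran widely, from 9.38 in L-B to 43.6 in L-C for Mm2092 and from 3.14 to 22.1 for Mm108554. SBE2.1 was called higher in code 0 than in L as deposited but with neither other scaling, and that call was lost without any 1 of 0-A (0.185), 0-B (0.0809), 1-C (0.05) or L-B (0.0857). The isoamylases ISA1 (AT2G39930) and ISA2 (AT1G03310), which form the complex that trims misplaced branches, had 3 kept contigs and no call in any comparison as deposited. ISA1 Mm11547 was at 19.6 ± 3.37, 13.6 ± 1.74, 9.76 ± 2.15 and 14.1 ± 5.39, and ISA2 Mm4523 at 14.7 ± 0.131, 7.10 ± 0.884, 9.37 ± 0.781 and 10.3 ± 3.66. Other scalings gave calls. With equal totals, ISA2 Mm4523 was called lower in code 1 than in code 0, at -1.09, and ISA1 Mm11547 lower in code 2 than in codes 0 and L, at -1.08 and -1.002. With median ratio scaling, both were called lower in codes 1 and 2 than in L, ISA1 at -1.02 and -1.40 and ISA2 at -1.43 and -1.02.

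As a share of the library total, the summed synthesis contigs made up 0.0888% and 0.0951% for code 0, between 0.0472% and 0.0642% for code 1, between 0.0466% and 0.0633% for code 2 and between 0.130% and 0.149% for code L. Code L stood highest, and its 3 values include APL1 Mm178893, which alone gave 336 to 555 of sums between 818 and 1364.

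Breakdown opens with phosphorylation of the granule by GWD1 (AT1G10760) and then PWD (AT5G26570), the phosphoglucan, water dikinase. PWD Mm2704 was at 25.6 and 26.5 in code 0, 488, 394 and 446 in code 1, 1350.5, 412 and 395 in code 2, and 72.9, 33.9 and 53.5 in code L. The libraries of codes 1 and 2 were at 394 or more and those of codes 0 and L at 72.9 or less, with 2-A well above the rest. From code 0 to code 1 the difference was 4.03 (SE 0.49, adjusted p = 0.000183) and code 2 minus code 0 4.48 (SE 0.49, adjusted p = 0.000111). Against code L, code 1 was higher by 3.09 (SE 0.44, adjusted p = 0.000112) and code 2 by 3.54 (SE 0.44, adjusted p = 4.34e-05). The 4 calls held under every scaling and with any 1 library left out. Without 2-A, code 2 minus code 0 was 3.90 (adjusted p = 6.02e-05).

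The other PWD contigs did not share this order. Mm668 was at 24.2 ± 9.37 in code 0, 21.0 ± 6.29 in code 1, 29.6 ± 1.21 in code 2 and 27.4 ± 12.9 in code L and was called in no comparison. Mm91277 was at 12.0 and 17.9 in code 0, 12.2, 10.6 and 9.68 in code 1, 0.224, 4.14 and 1.55 in code 2, and 10.1, 20.9 and 21.1 in code L, lowest in code 2, with code 2 minus code 0 at -2.64 (SE 0.53, adjusted p = 0.00445). PWD was the locus with contigs called in both directions between codes 2 and 0. GWD1, which acts before PWD, had its leading contig Mm1076 at 33.9 ± 13.5, 20.1 ± 3.83, 19.9 ± 4.44 and 43.0 ± 22.3 in codes 0, 1, 2 and L, with no call. Its second contig, Mm77280, was at 8.19 and 17.2 in code 0, 5.12, 7.55 and 5.34 in code 1, 0.00100, 2.05 and 1.55 in code 2, and 17.6, 42.6 and 36.8 in code L, and code 2 minus code 0 was -2.71 (SE 0.54, adjusted p = 0.00392). That call was lost without 0-B (0.0616), while code 2 minus code L, at -3.98 (SE 0.48, adjusted p = 3.47e-05), held.

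SEX4 (AT3G52180) is the phosphatase that removes the phosphate groups so that amylases can proceed. Its leading contig Mm2343 was at 198 and 208 in code 0, 119, 66.8 and 107 in code 1, 90.4, 85.2 and 104 in code 2, and 55.1, 35.0 and 78.1 in code L. Code 0 was above all other libraries, and code 1 minus code 0 was -1.09 (SE 0.34, adjusted p = 0.0347) and code 2 minus code 0 -1.12 (SE 0.34, adjusted p = 0.0336). The first call was lost without any 1 of 0-A (0.131), 0-B (0.157), 1-B (0.107) or 1-C (0.062), and the second without any 1 of 0-A (0.127), 0-B (0.16), 2-A (0.0696) or 2-B (0.0808). A minor SEX4 contig, Mm292761, was highest in code L at 16.3, 34.1 and 43.9 and listed at 0 in 2-A and 2-B. The related phosphatases LSF1 and LSF2 had 1 contig each, with no value above 7.13 and 3.90.

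Debranching is carried out by ISA3 (AT4G09020) and by limit dextrinase (LDA). ISA3 Mm30929 was at 39.9 and 44.9 in code 0, 31.1, 23.3 and 27.8 in code 1, 10.4, 16.1 and 26.2 in code 2, and 11.3, 14.4 and 22.2 in code L, with code 2 minus code 0 at -1.31 (SE 0.37, adjusted p = 0.024), a call lost without any 1 of 0-A (0.0952), 0-B (0.143), 2-A (0.0658) or 2-B (0.0541). LDA (AT5G04360) Mm20282 was at 10.7 and 9.26 in code 0, 3.35, 2.29 and 2.99 in code 1, 2.50, 1.84 and 2.42 in code 2, and 10.6, 7.59 and 17.3 in code L. Both codes 1 and 2 lay below codes 0 and L without overlap. LDA Mm20282 reached the minimum in libraries of codes 0 and L only, which favours this order. Code 1 minus code 0 was -1.51 (SE 0.36, adjusted p = 0.00909) and code 2 minus code 0 -1.76 (SE 0.36, adjusted p = 0.00449). The first of these was lost without 0-A (0.0765). Against code L, code 1 was at -1.67 (SE 0.32, adjusted p = 0.000742), and the call held.

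The beta-amylases, which release maltose from chain ends, had 10 kept contigs of 5 loci. Of these contigs, 3 were called higher and 1 lower in code 1 than in code 0, against 13.6% and 12.2% of all contigs. BAM1 (AT3G23920) is a plastid enzyme that in Arabidopsis acts in guard cells and under stress. Its leading contig Mm17 was at 108 and 84.3 in code 0, 494, 353 and 500.0 in code 1, 1414, 578 and 679 in code 2, and 82.0, 69.8 and 147 in code L. As for PWD, codes 1 and 2 were above codes 0 and L without overlap, and 2-A was the highest library. Code 1 minus code 0 was 2.21 (SE 0.43, adjusted p = 0.00317), code 2 minus code 0 3.09 (SE 0.43, adjusted p = 0.000441), code 1 minus code L 2.22 (SE 0.38, adjusted p = 0.000385) and code 2 minus code L 3.11 (SE 0.38, adjusted p = 4.09e-05). All 4 calls held under the other scalings and with any 1 library left out, and without 2-A code 2 minus code 0 was 2.70 (adjusted p = 0.00073). PWD Mm2704 and BAM1 Mm17 together, a pair singled out after their values were seen, made up 56.7% to 57.7% of the summed breakdown contigs in code 1 and 60.3% to 82.4% in code 2. They made up 10.4% and 11.5% in code 0 and 12.1% to 15.0% in code L. Without the pair, the sum of the breakdown contigs was 959 and 1024 for code 0, between 571 and 751 for code 1, between 591 and 709 for code 2 and between 755 and 1139 for code L. How the authors' values treat contig length is not given, so these sums may weigh long and short contigs unequally.

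The minor BAM1 contigs divided. Mm7657 and Mm7128 met the minimum through code 2 alone and Mm346182 through code L alone, so higher levels there were required for them to be kept. Mm7657 was at 0.988 and 0.339 in code 0, 9.10, 7.25 and 9.33 in code 1, 12.3, 19.0 and 7.36 in code 2, and 3.14, 4.81 and 6.54 in code L and was higher in codes 1 and 2 than in code 0, by 2.54 (SE 0.42, adjusted p = 0.00116) and 3.002 (SE 0.42, adjusted p = 0.000445). Mm7128 was at 9.10 to 12.3 in code 2 and at no more than 1.61 in code 1, a difference not called between those codes, while Mm346182 was at 15.7, 32.1 and 7.62 in code L and at no more than 2.54 elsewhere. BAM9 (AT5G18670), a catalytically inactive member of the family, was at 13.8 and 13.3 in code 0, 71.9, 32.6 and 51.0 in code 1, 38.7, 42.2 and 96.2 in code 2, and 4.42, 3.20 and 6.94 in code L (Mm2301). It was lowest in code L and higher in codes 1 and 2 than in code 0, with code 1 minus code 0 at 1.79 (SE 0.44, adjusted p = 0.0117) and code 1 minus code L at 3.15 (SE 0.40, adjusted p = 4.91e-05). Each difference from code 0 rests on both of its libraries: for code 1 the call was lost without either 0-A (0.0694) or 0-B (0.0758), and for code 2 without either 0-A (0.0595) or 0-B (0.0677). The calls of codes 1 and 2 against L held.

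BAM3 (AT4G17090), the main beta-amylase of starch breakdown in the Arabidopsis leaf, was highest in code L. Its contig Mm70493 and both kept BAM6 contigs met the minimum through code L alone, so a higher level there was required for them to be kept. Mm70493 was at 0 and 0.561 in code 0, 1.43, 3.78 and 1.07 in code 1, 0.0830, 1.00 and 0.203 in code 2, and 50.6, 36.0 and 59.0 in code L, with code 0 minus code L at -5.28 (SE 0.46, adjusted p = 1.14e-05) and code 2 minus code L at -5.14 (SE 0.42, adjusted p = 3.04e-06). Both kept BAM6 (AT2G32290) contigs followed the same order: Mm301469 was at 13.7, 10.2 and 16.5 in code L, 0.0570 and 0.274 in code 0 and listed at 0 in codes 1 and 2, and Mm214656 was at 12.3, 4.12 and 10.8 in code L, 0 and 0.0320 in code 0 and listed at 0 in the others. The photosynthesis marker sum and the epidermal gene CER6 were highest in the same libraries, where the stomatal gene FAMA was at no more than 1.90, and their part in this was not tested. BAM2 (AT4G00490) Mm6178 was at 21.3 and 21.2 in code 0, 10.9, 8.13 and 8.65 in code 1, 22.4, 12.6 and 9.61 in code 2, and 13.3, 8.20 and 16.2 in code L. Code 1 minus code 0 was -1.13 (SE 0.37, adjusted p = 0.0417), and the call was lost without any 1 of 0-A, 0-B, 1-A, 1-B, 1-C, 2-B or L-A, with adjusted p from 0.0524 to 0.165. No kept contig matched BAM4, whose highest value was 15.1, and none was listed for BAM5.

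**Figure D4:**
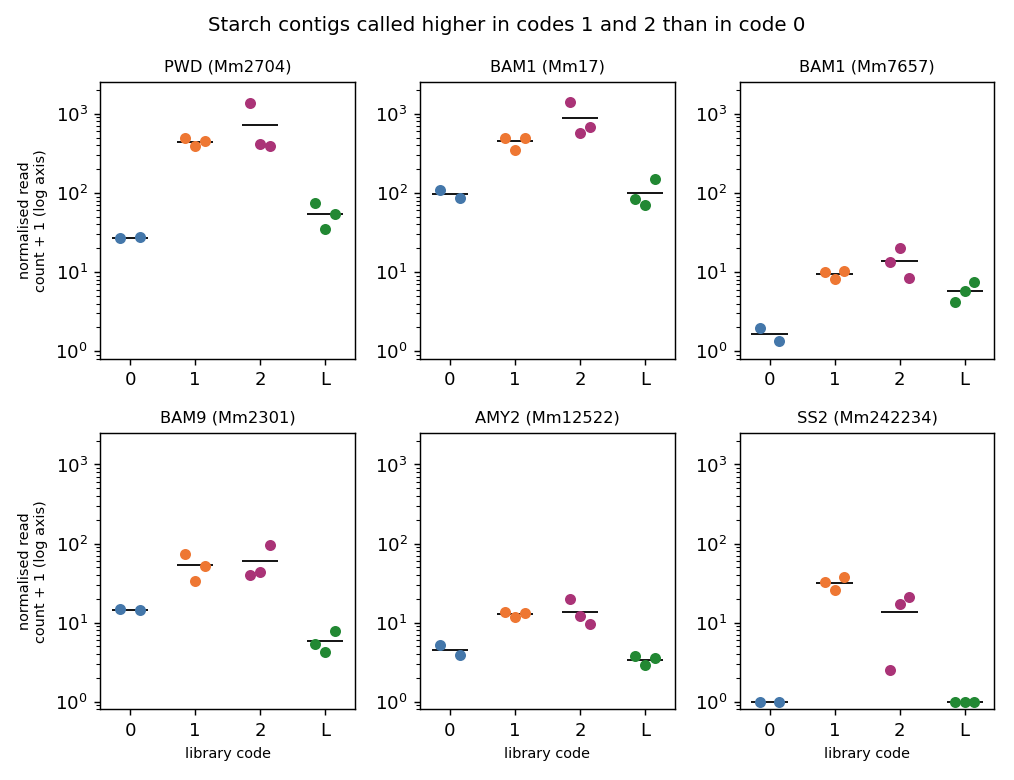
Points are libraries and lines the code means of 6 contigs called higher in codes 1 and 2 than in code 0, as normalised read count plus 1 on a log axis. PWD Mm2704 and BAM1 Mm17 reach 353 or more in every library of codes 1 and 2, and SS2 Mm242234 is listed at 0 in codes 0 and L.

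The alpha-amylases cut within chains. AMY1 (AT4G25000), a secreted form in Arabidopsis, had Mm2809 at 14.7 and 17.0 in code 0, 53.1, 25.2 and 40.5 in code 1, 75.4, 28.5 and 100.4 in code 2, and 56.1, 20.1 and 27.4 in code L. Code 0 was below every other library, and code 2 minus code 0 was 1.87 (SE 0.54, adjusted p = 0.0275), which was lost without any 1 of 0-A (0.141), 0-B (0.114), 2-A (0.0705) or 2-C (0.0608). The second AMY1 contig, Mm252734, was at 15.1 ± 7.70 in code 1 and 9.45 ± 1.73 in code 2, above code 0 at 3.56 ± 1.48 and code L at 0.918 ± 0.391, with code 1 minus code 0 at 1.76 (SE 0.42, adjusted p = 0.00943). AMY2 (AT1G76130) Mm12522, the match to a cytosolic form, was at 4.16 and 2.90 in code 0, 12.6, 10.8 and 12.4 in code 1, 18.6, 11.1 and 8.72 in code 2, and 2.79, 1.88 and 2.55 in code L. It was higher in code 1 than in code 0 by 1.53 (SE 0.34, adjusted p = 0.00704) and in code 2 by 1.56 (SE 0.34, adjusted p = 0.00709), and both calls were lost without 0-B (0.0745 and 0.0779). Its calls against code L, 1.93 for code 1 and 1.97 for code 2, held.

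AMY3 (AT1G69830), the plastid alpha-amylase, had 8 kept contigs, the most of any locus, and they differed in their order across codes. Its leading contig Mm10655 was at 26.1 and 29.2 in code 0, 10.7, 13.9 and 11.5 in code 1, 11.9, 14.4 and 5.32 in code 2, and 17.7, 26.7 and 25.3 in code L. Code 2 minus code 0 was -1.41 (SE 0.36, adjusted p = 0.016), lost without either 0-A (0.0756) or 0-B (0.111). The call of code 1 against code 0 (-1.14) was lost without any 1 of 0-A (0.127), 0-B (0.181), 1-A (0.0999), 1-B (0.0541) or 1-C (0.0936). AMY3 Mm15272 was at 35.1 and 39.7 in code 0, 0.945, 0.977 and 0.674 in code 1, 2.88, 0.721 and 2.39 in code 2, and 9.64, 2.86 and 17.3 in code L, with code 1 minus code 0 at -4.36 (SE 0.58, adjusted p = 0.000311) and code 2 minus code 0 at -3.76 (SE 0.58, adjusted p = 0.000884). Code 0 was thus far above codes 1 and 2 for this contig, and code L overlapped code 2. AMY3 Mm122370 was at 7.05 and 2.41 in code 0, 0.251, 0.437 and 0 in code 1, 0.336, 8.36 and 0 in code 2, and 50.2, 31.5 and 58.5 in code L, highest in code L, with code 1 minus code L at -5.25 (SE 0.72, adjusted p = 8.72e-05). Mm122370 met the minimum through code L alone, so a higher level there was required for it to be kept. AMY3 Mm2895 had yet another order, with 14.7 ± 2.40 in code 1, 8.73 ± 1.42 in code 0, 8.15 ± 1.80 in code 2 and 3.77 ± 2.47 in code L. Summed over its contigs, the locus was at 150.4 ± 10.2 in code 0, 87.3 ± 4.63 in code 1, 74.8 ± 18.6 in code 2 and 173 ± 47.3 in code L.

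The last group handles maltose and glucans after release. PHS1 (AT3G29320), the plastid glucan phosphorylase, was high in code 0: Mm6708 was at 43.7 and 41.8 in code 0, 8.02, 5.79 and 7.19 in code 1, 6.33, 6.81 and 4.99 in code 2, and 17.4, 9.38 and 20.4 in code L. Code 0 was above every other library, code L came next, and codes 1 and 2 were lowest. PHS1 Mm6708 reached the minimum in libraries of codes 0 and L only, which favours low values in codes 1 and 2. The difference of code 1 minus code 0 was -2.46 (SE 0.32, adjusted p = 0.000295) and code 2 minus code 0 -2.64 (SE 0.32, adjusted p = 0.000219), and neither was lost when any 1 library was left out. Code 1 minus code L was -1.01 (SE 0.29, adjusted p = 0.00844), lost without any 1 of 1-B (0.0317), L-A (0.0343) or L-C (0.0331) because the difference then fell under 1. DPE1 (AT5G64860), the plastid glucanotransferase that acts on maltotriose, had Mm6901 at 40.3 and 35.4 in code 0, 16.1, 11.9 and 17.1 in code 1, 14.5, 15.3 and 9.58 in code 2, and 21.1, 13.5 and 25.7 in code L, with code 1 minus code 0 at -1.29 (SE 0.31, adjusted p = 0.011) and code 2 minus code 0 at -1.48 (SE 0.31, adjusted p = 0.00588). These were lost without either 0-A (0.0882) or 0-B (0.0545) in the first case and without 0-A (0.0578) in the second.

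MEX1 (AT5G17520), the maltose exporter of the plastid, was highest in code L. Mm15280 was at 39.3 and 23.7 in code 0, 20.7, 15.6 and 20.4 in code 1, 10.2, 13.6 and 17.3 in code 2, and 49.5, 51.8 and 55.2 in code L, with code 1 minus code L at -1.43 (SE 0.26, adjusted p = 0.000485) and code 2 minus code L at -1.88 (SE 0.26, adjusted p = 7.76e-05), both held. The call of code 2 against code 0 (-1.13) was lost without either 0-A (0.16) or 2-A (0.0445), in the second case because the difference fell to -0.95. In the cytosol, DPE2 transfers glucose from maltose and PHS2 (AT3G46970) works on the glucans so formed. Their leading contigs, DPE2 Mm2164 at 30.8 ± 6.55, 18.6 ± 5.66, 19.4 ± 3.51 and 15.6 ± 7.10 and PHS2 Mm1756 at 54.7 ± 5.78, 31.7 ± 4.87, 29.1 ± 3.17 and 58.4 ± 25.5 in codes 0, 1, 2 and L, were not called between codes 0, 1 and 2. The DPE2 call of code 0 against L, at 1.04 (SE 0.42, adjusted p = 0.0452), was absent under the other scalings. A minor contig of each was lower in code 1 than in code 0, with log2 differences of -1.94 (SE 0.57, adjusted p = 0.0254) for DPE2 Mm354241 and -1.66 (SE 0.38, adjusted p = 0.00803) for PHS2 Mm16883. Both minor contigs met the minimum through code 0 alone, so a higher level there was required for them to be kept. PHS2 Mm16883 was at 1.37, 0.669 and 0.413 in code L, where the other PHS2 contig, Mm31768, reached 34.2, 44.2 and 48.1. With all contigs of a locus summed, limma called DPE2 lower in code 1 than in code 0, at -1.15 (SE 0.25, adjusted p = 0.00469). The DPE2 sum was not called in code 2 (-0.94). PHS2 was called lower in code 2 than in code 0, at -1.22 (SE 0.22, adjusted p = 0.00146), and not in code 1 (-0.95).

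**Figure D5:**
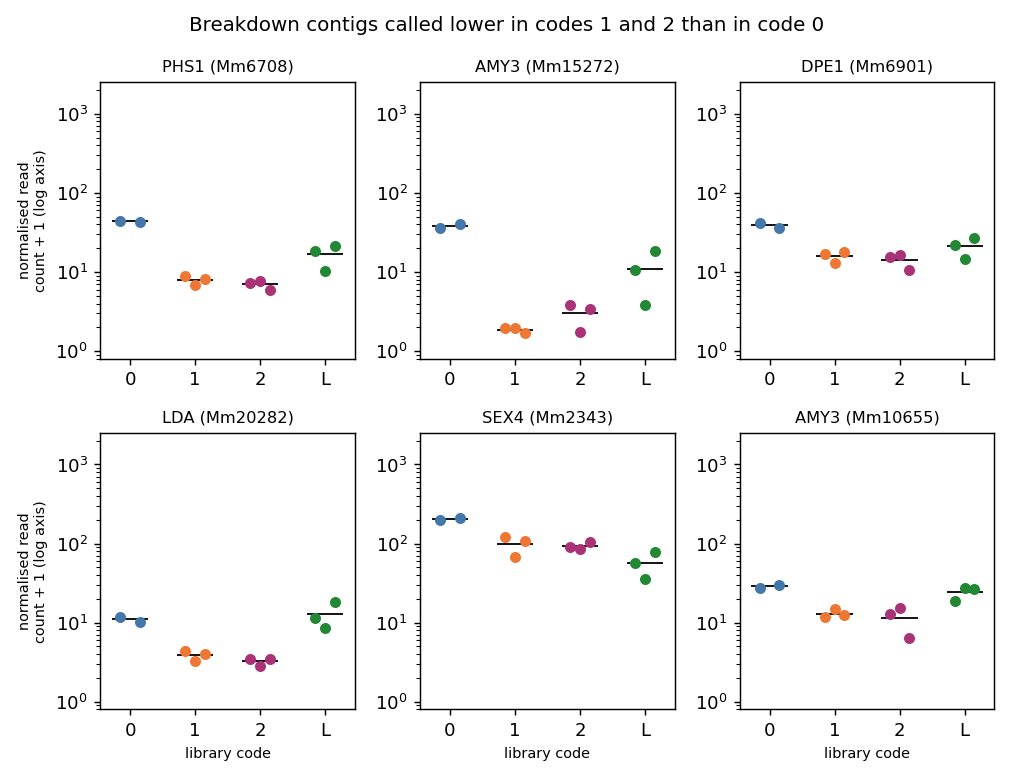
Points are libraries and lines the code means of 6 breakdown contigs called lower in codes 1 and 2 than in code 0, as normalised read count plus 1 on a log axis. PHS1 Mm6708 and AMY3 Mm15272 lie at 35.1 or more in code 0 and at 8.02 or less in codes 1 and 2.

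Loci with contigs called in both directions were found mainly in comparisons with code L, where calls were also more frequent over all contigs. Among the 20 loci with more than 1 kept contig, none had contigs called in both directions between codes 1 and 0, and PWD alone did between codes 2 and 0. Against code L there were 6 such loci for code 0 (PGI1, APS1, SEX4, BAM1, AMY3 and PHS2), 5 for code 1 and 6 for code 2. How often other loci of the whole table split this way was not counted. PGI1, SEX4, BAM1, AMY3 and PHS2 have contigs that met the minimum in 1 code only, and these contigs had to differ to be kept. Reads of similar contigs are divided among them by estimate, so single contigs of these loci are less certain than their sums. With all contigs of a locus summed, 34 loci could be tested, BAM4 being added. In code 1 minus code 0, 16 of them were called, 7 higher and 9 lower, where 22.2% of all loci were called. In code 2 minus code 0, 18 were called, 6 higher and 12 lower, against 22.7%. Among the sums, BAM3 was called higher than code 0 in code 1 alone, by 2.40. Its sums were low, at 0.89 ± 1.09 in code 0 and 8.28 ± 2.17 in code 1, against 66.9 ± 16.9 in code L. BAM2 and DPE2 were called lower than code 0 in code 1 alone. GWD1 (at -1.09), ISA3, AMY3, MEX1 and PHS2 were called lower in code 2 alone. Sums of PWD, BAM1, BAM9, AMY1, AMY2 and SS2 were higher in both codes, and those of APS1, APL1, APL4, SEX4, LDA, DPE1 and PHS1 were lower in both. Between codes 2 and 1 no locus of the list was called by limma, where 1.37% of all loci were. Against code L, 14 summed loci were called for code 0, 17 for code 1 and 17 for code 2, where 61.3%, 63.9% and 63.2% of all loci were.

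Counts over the kept contigs are not free of the minimum itself, since the contigs named above as reaching it in 1 code only were 17 of the 67. The 126 contigs below it had no value above 16.8, and 10 of them reached 10 in 1 library. Single libraries also stood apart within a code. L-B was the lowest library of code L in 44 of the 67 starch contigs (65.7%, against 51.6% of all contigs), L-C the highest in 44 (65.7%, against 61.0%), and 1-B the lowest of code 1 in 46 (68.7%, against 57.5%). Over all kept contigs, libraries of code 2 correlated least with each other, at 0.767 to 0.878, against 0.904 or more within each other code. Without 2-C, the share of all contigs called between codes 2 and 1 rose from 1.17% to 5.69%.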

How the data were processed

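RNA of Melianthus elongatus (M. minor in the design text) leaves and nectaries was sequenced in 11 libraries, and kallisto 0.46.1 was used per the submitters' processing notes. The deposited table holds a signal per contig, headed normalised read counts by the authors. Scaling, assembly and treatment of contig length are not stated in those notes. Since the values are not whole numbers, read depth is unknown and no count model was applied.

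Groups were the library codes that the sample descriptions share with the table's columns. Contigs reaching 10 in 2 or more libraries entered limma 3.58.1 (R 4.3.3) as log2(value + 1), in a single fit of the 11 libraries with a mean for each code and a trended prior variance. P-values are two-sided and adjusted by Benjamini-Hochberg across all 26053 contigs. Calls required adjusted p below 0.05 and a log2 difference of 1 or more in size. The log2(value + 1) scale understates the change of low contigs.

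The text names the leading contig of each of 33 loci, and up to 3 contigs per comparison and direction with the largest called difference and no overlap between codes. Contigs named beyond this rule were chosen after their values were seen. The members and lists were chosen with earlier results of these data known. Alternatives changed the filter, pseudocount, scaling, library weights, samples in the fit, grouping and replicate letter, summed contigs per locus, or left out each library in turn. The fit was tested on simulated data with known differences. Figures were drawn with matplotlib 3.10.9.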

Additional observations from a re-analysis of the deposited data

How the results depend on the processing

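The counts of called starch contigs followed the filter. With no filter, of 193 listed contigs, they were 37 for code 1 minus code 0, 1 for code 2 minus code 1, and 70, 73 and 78 for codes 0, 1 and 2 minus code L, where 19.2%, 0.784%, 42.5%, 47.3% and 45.3% of all 68651 contigs were called. With a minimum of 50 they were 7 for code 1 minus code 0, 9 for code 2 minus code 0, and 12 in each comparison with code L, of 18 starch contigs that enter, where 30.4%, 28.7%, 71.9%, 78.7% and 77.6% of all contigs were called. With contigs summed per locus, 14, 17 and 17 loci were called for codes 0, 1 and 2 minus code L. With only the 2 codes compared in the fit, 17 were called for code 2 minus code 0, against 15.6% of all. Library weights gave 6 for code 2 minus code 1, against 7.35%. Grouping by filed tissue and stage gave 0 for code 1 minus code 0 and for code 2 minus code 0, as it did over all contigs.

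Leaving out 1 library at a time gave 12 to 29 calls for code 1 minus code 0, 0 to 2 for code 2 minus code 1, 12 to 31 for code 2 minus code 0, 26 to 39 for code 0 minus code L, 35 to 40 for code 1 minus code L and 34 to 42 for code 2 minus code L. Those between codes 2 and 1 came without 2-B (1), 2-C (2) and L-A (1), where 3.16%, 5.69% and 0.983% of all contigs were called. The share of all contigs called also moved with the library left out. Against code 0 it was lowest without 0-A or 0-B, as given in the Results. It was highest without 2-C, at 29.1% for code 1 and 27.7% for code 2. Without a library of code 1, 2 or L, the shares against code L were 57.4% to 64.7% for code 0. They were 64.2% to 70.1% for code 1 and 63.1% to 68.4% for code 2.

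Single contigs reversed against code L. On summing per locus, APS1 Mm1136 was at -1.09 for code 1 and -1.22 for code 2, APS1 Mm56940 at 0.30 for code 0, APL4 Mm25035 at 1.80 for code 1 and 1.69 for code 2, AMY3 Mm15272 at -0.16 for code 0 and PGI1 Mm687 at -0.024 for code 0. These are values of the locus, since the sum replaces the contig. With median ratio scaling, ISA1 Mm11547 was at -1.02 for code 1 and PHS2 Mm1756 at -1.05 for code 0.

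The labels do not say that replicate letters pair the libraries, and not every same-letter pair deviated together. Deviations of the 15 same-letter pairs correlated at -0.126 to 0.236 (median 0.124, 8 above 0.1) and those of 30 other pairs at -0.345 to 0.246 (median -0.0725, 4 above 0.1). With the letter as a replicate block, 23, 2, 30, 40, 37 and 40 contigs were called for code 1 minus code 0, code 2 minus code 1, code 2 minus code 0, and codes 0, 1 and 2 minus code L. Of all contigs, 25.9%, 0.956%, 24.5%, 64.1%, 69.3% and 68.2% were then called. Among named contigs the block ended the call of AMY3 Mm10655 in code 1 minus code 0, at -1.03. Over the named contigs, without the counts of called contigs, 4641 values kept their direction and side of the threshold. A further 226 lost a call, 110 gained one, 156 moved and 9 reversed. The cause of these changes was not tested. Read depth is unknown, so the precision of low values cannot be given.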

Other observations

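Genes that neighbour the pathway (24 loci, of which 23 were listed and 17 had 63 kept contigs) were tested in the same limma fit, where 25.8% and 24.0% of all contigs were called in codes 1 and 2 minus code 0, and 62.8%, 68.8% and 67.5% in codes 0, 1 and 2 minus code L. In code 1 minus code 0, 16 of the 63 contigs were called, 6 higher and 10 lower, and in code 2 minus code 0, 22 were called, 9 higher and 13 lower. None was called between codes 2 and 1, where 3 had an unadjusted p under 0.05. Against code L, 45, 45 and 44 were called for codes 0, 1 and 2, of which 37, 34 and 35 were higher than in L. These directions are for the values as deposited, and other scalings were not summarised for these genes.

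GPT1, the importer of glucose 6-phosphate into plastids that make starch without photosynthesis, had contigs with different orders. GPT1 Mm46627 was at 159 and 164 in code 0, 2.63, 1.48 and 1.29 in code 1, 14.0, 1.86 and 1.80 in code 2, and 19.3, 18.4 and 2.82 in code L. GPT1 Mm214412 was instead at 29.0, 25.1 and 35.2 in code L and at 2.31 or less elsewhere. Plastid FBPase, an enzyme of the Calvin cycle and of sugar supply to starch, had Mm14191 at 350.4, 239 and 396 in code L and at 8.44 to 15.4 in the other codes. The contigs in this paragraph were chosen after their values were seen.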
